A study of Mus musculus with 10 samples.

Results

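Atf4, Ddit3 and 8 further regulators of the ATF4 and CHOP stress programme are described here across the arrays of 3T3-L1 adipocytes treated with a conjugated linoleic acid or its control. The 10 genes were chosen by symbol, with their difference between the fatty acids already known: every probe set annotated to Atf4, Ddit3, Atf3, Atf5, Cebpg, Trib3, Ppp1r15a, Chac1, Ddit4 or Sesn2 was taken. They have 17 of the 45101 probe sets on the array and are 10 of the 18193 genes with a probe set. All 10 were bright enough to be among the 10916 genes tested. Because the members were selected on the CLA against LA difference, that difference is given for them as a description, and the tests concern time, the change of the difference with time, and all genes.

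3T3-L1 is a mouse fibroblast line that turns into fat-storing cells when differentiated. The cultures were labelled as adipocytes and received c9t11 CLA, a linoleic acid isomer whose cis and trans double bonds are conjugated, or LA, the usual short name of linoleic acid, which the labels do not spell out. Total RNA was taken at 8 h and 12 h and hybridised to Affymetrix arrays. CLA was measured on 1 array at 8 h and 1 array at 12 h, both labelled biological replicate 1, and LA on 4 arrays at each time, whose labels number them as biological replicates from 1 to 4. No untreated culture and no second cell line was among these arrays, so every value is relative to LA in a single line. CLA has no replicate at either time.

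When the translation factor eIF2 is phosphorylated by one of its kinases, general protein synthesis slows while the Atf4 message is translated better. ATF4 is a basic leucine zipper (bZIP) factor that pairs with C/EBP proteins on composite DNA elements and raises genes of amino acid supply and stress handling, among them Ddit3, which encodes CHOP. CHOP in turn pairs with C/EBP factors, which also drive fat cell formation, and the programme includes its own brakes: Ppp1r15a, which encodes GADD34 and directs a phosphatase to eIF2, and Trib3, a pseudokinase that binds ATF4 and AKT.

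The promoters are shown first for the 3 members that carry a C/EBP-ATF response element, the composite site that ATF4 dimers bind, near their annotated start. Each window runs 5′ to 3′ on the strand of the gene and covers 250 bases before and 50 bases after the start in RefSeq (GRCm38.p6). Capitals mark the match, which lies on the opposite strand in each of them: Atf3 at chr1:191183284-191183583 (minus strand), Chac1 at chr2:119350992-119351291 (plus strand) and Trib3 at chr2:152344011-152344310 (minus strand).
Atf3: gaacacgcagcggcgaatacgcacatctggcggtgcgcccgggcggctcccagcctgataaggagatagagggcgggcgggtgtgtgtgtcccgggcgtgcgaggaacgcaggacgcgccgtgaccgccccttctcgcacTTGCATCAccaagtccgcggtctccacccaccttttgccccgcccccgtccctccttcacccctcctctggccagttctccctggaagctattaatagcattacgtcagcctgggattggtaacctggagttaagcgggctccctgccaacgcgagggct
Chac1: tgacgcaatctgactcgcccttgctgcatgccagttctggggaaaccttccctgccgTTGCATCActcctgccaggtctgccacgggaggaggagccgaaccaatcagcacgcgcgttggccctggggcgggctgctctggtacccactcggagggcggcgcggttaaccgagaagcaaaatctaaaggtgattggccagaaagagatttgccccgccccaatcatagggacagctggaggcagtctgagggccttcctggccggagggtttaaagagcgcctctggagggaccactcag
Trib3: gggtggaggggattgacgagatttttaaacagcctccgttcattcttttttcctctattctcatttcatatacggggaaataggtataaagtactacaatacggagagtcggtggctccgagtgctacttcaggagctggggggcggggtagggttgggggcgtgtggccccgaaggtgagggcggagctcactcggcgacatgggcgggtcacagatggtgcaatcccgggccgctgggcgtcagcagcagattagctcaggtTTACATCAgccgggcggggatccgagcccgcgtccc
The element was searched as TGATGNAA, or TTNCATCA on the other strand, and began at position -110 from the start in Atf3, -193 in Chac1 and 15 in Trib3. It was present in 3 of the 11 windows of the members and in 3.97% of all 32851 promoter windows. The full cAMP response element TGACGTCA, which CREB and ATF factors bind, was found in 1 member, Ppp1r15a (window chr7:45526219-45526518, minus strand), at position -12, and in 1.79% of all windows; its surroundings are printed with the site in capitals.
Ppp1r15a: cgcctctccggTGACGTCAgcacagcgccg
The core TGACG, which is part of the full element in Ppp1r15a, occurred in the windows of 5 members (Atf4, Atf3, Trib3, Ppp1r15a and Chac1) and in 20.8% of all windows. The AP-1 site TGANTCA occurred in 1 member, Ddit3, at position -242, and in 7.81% of all windows. These are letter matches in short windows and show neither binding nor its absence.

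The arrays separated by replicate number. The 4 arrays numbered replicate 1, which are both CLA arrays and an LA array of each time, were dimmer as deposited, with the 75th percentile of an array between 26.4 and 39.5, where it was 54.4 to 76.8 on the 6 LA arrays numbered 2 to 4. All values below are intensities after quantile normalisation, in the arbitrary units of the scanner, or their log2, and values under a floor of 14.3 were raised to it. Of the white adipocyte markers, 7 of 9 were tested, none lay at the floor on any array, and their summed intensity was 29578 to 33426 in CLA and 22884 to 33436 in LA, so the label of adipocyte cultures fitted its markers. The preadipocyte and fibroblast markers (7 of 8 tested) were also bright, and all 7 lay lower in CLA than in LA and in LA replicate 1 than in LA replicates 2 to 4. Their summed intensity was 4892 and 9637 in CLA, 5889 and 9459 in LA replicate 1, and 10090 to 23126 in LA replicates 2 to 4. Of the 6 macrophage markers, Ptprc, Itgam and Lyz2 were at the floor on all 10 arrays and Cd68 on 7, while Adgre1 and Csf1r were above it on every array. Their summed intensity at 8 h and 12 h was 308 and 209.7 in CLA and 273 and 223 in LA replicate 1, and it was 124 to 379 in LA replicates 2 to 4. Adgre1 lay higher in CLA than in LA by a log2 difference of 1.39, and higher in LA replicate 1 than in replicates 2 to 4 by 1.94; for Csf1r these were -0.12 and -0.24. In whole cultures, fewer cells of a type and less of a transcript per cell cannot be told apart, and the part of cell composition in the values below was not tested.

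Atf4, Ddit3, Atf3 and Atf5, transcription factors of the programme, were brightest on the arrays numbered replicate 1, whichever fatty acid the culture had received. Atf4 itself had an intensity of 2166 in CLA at 8 h, against 1864, 1336, 787 and 655 in LA replicates 1 to 4. The 12 h values were 1809 in CLA and 1868, 1154, 912 and 565 in LA replicates 1 to 4. The CLA array and LA replicate 1 lay close together at both times, above the other LA arrays without overlap. A further Atf4 probe set, 1438992_x_at, had 546 in CLA and 507, 269.6, 179.6 and 249.9 in LA replicates 1 to 4 at 8 h. On it the same 4 arrays were the brightest. The third, 1439258_at, lay at the floor on all 10 arrays and gave no measurement.

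Ddit3, the gene of CHOP, repeated this order. Its intensity was 1211 in CLA at 8 h, against 1001, 501, 267 and 284 in LA replicates 1 to 4. Ddit3 at 12 h was 1136 in CLA, against 964, 571, 316 and 179.8. The gap was again between replicate 1 and the others, of which LA replicate 2 was the brightest at both times. The other Ddit3 probe set, 1443897_at, was dim, at the floor on 3 of the 4 replicate 1 arrays, and lay the other way, with a CLA minus LA difference of -0.43 on the log2 scale.

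Atf3, a stress-induced bZIP factor that acts mostly as a repressor, was detected mainly on the replicate 1 arrays. It had 189.8 in CLA at 8 h, against 146 in LA replicate 1, the floor of 14.3 in replicates 2 and 3, and 19.3 in replicate 4. At 12 h it had 86.8 in CLA and 89.5 in LA replicate 1, while replicates 2 and 4 were at the floor and replicate 3 had 16.7. The floor held 4 of the 6 LA arrays numbered 2 to 4, so the size of any difference between them and replicate 1 depends on where the floor was set.

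Atf5, a relative of ATF4 that supports mitochondrial protein quality control, had 1568 in CLA at 8 h, against 1762, 536, 719 and 265 in LA replicates 1 to 4. Atf5 at 12 h had 1757 in CLA, against 1805, 497, 841 and 203. LA replicate 1 was slightly above CLA at both times, and LA replicate 4 was the dimmest.

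Cebpg, a C/EBP protein without its own activating domain that pairs with ATF4, ran opposite to the other factors. Its brightest probe set, 1425262_at, had 182 in CLA at 8 h, against 250.5, 389.8, 517 and 597 in LA replicates 1 to 4. The same probe set at 12 h had 317 in CLA, against 269, 447, 529 and 539.9. The replicate 1 arrays were the 4 dimmest. The probe sets of Cebpg disagreed: 1451639_at had 219.6 in CLA and 239, 149, 229 and 254 in LA replicates 1 to 4 at 8 h, with overlapping groups and a CLA minus LA difference of 0.05, although it is annotated to the same transcript. The third, 1425261_at, was at the floor on 3 of the 4 replicate 1 arrays and had a difference of -0.94. The lower Cebpg value therefore rests on 2 of its 3 probe sets.

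**Figure D1:**
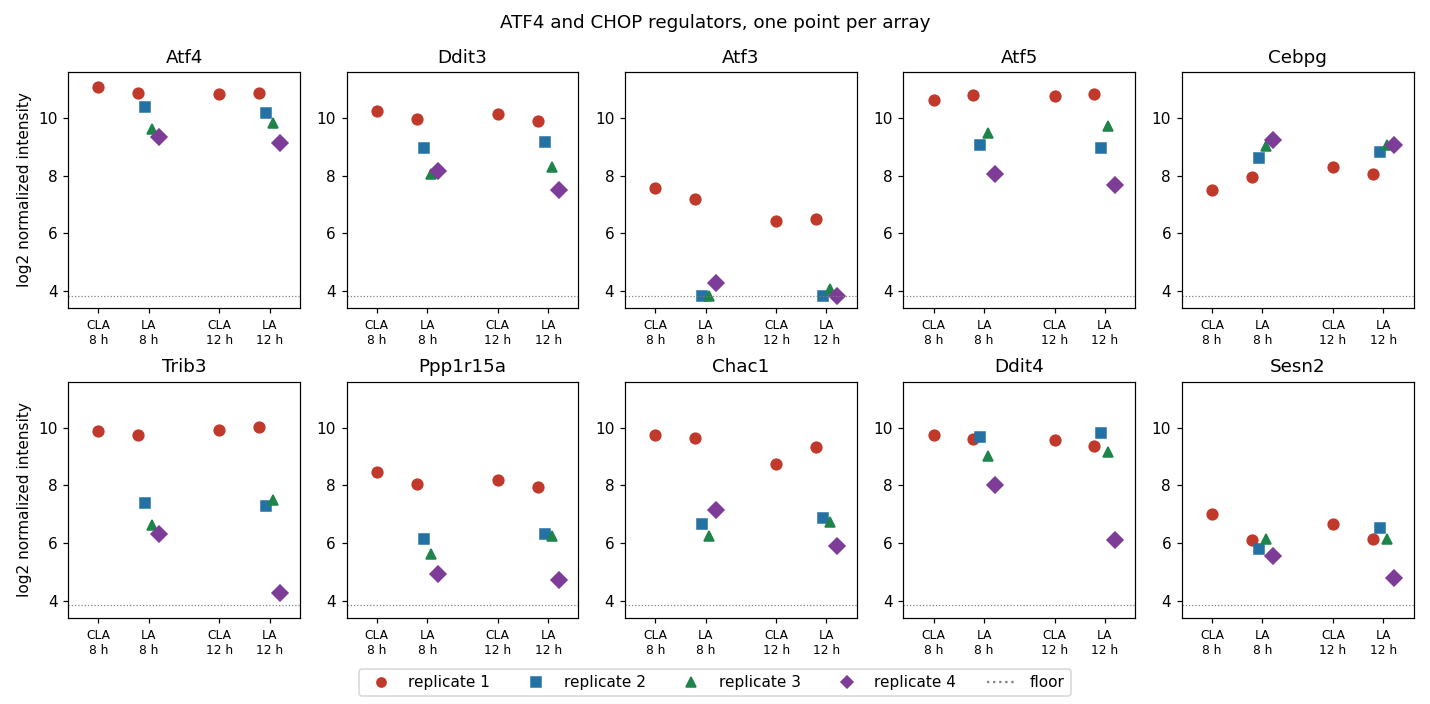
Log2 normalised intensity of the brightest probe set of each of the 10 members, with 1 point per array, coloured by replicate number and grouped by fatty acid and time; the dotted line is the floor. In 7 members every replicate 1 array lies above every other array, in Cebpg every one lies below, and in Ddit4 and Sesn2 they overlap.

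For the feedback genes the gaps were wider than for Atf4 and Ddit3. Trib3 had 939 in CLA at 8 h, against 867, 166, 97.6 and 78.4 in LA replicates 1 to 4. The 12 h intensity was 958 in CLA, against 1042, 155, 181 and 19.2. Every Trib3 value outside replicate 1 was far below those within it. The second Trib3 probe set, 1456225_x_at, had 641 in CLA at 12 h, against 648, 139, 93.3 and 27.8 in LA replicates 1 to 4, which is the same picture. Ppp1r15a had 348 in CLA at 8 h, against 262, 70.7, 48.9 and 30.1. At 12 h it had 289 in CLA, against 244, 78.8, 75.2 and 26.3. CLA was the highest Ppp1r15a value at each time, LA replicate 1 the next, and LA replicate 4 the lowest.

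Chac1, an ATF4 and CHOP target that breaks down glutathione, had 848 in CLA at 8 h, against 798, 101, 76.2 and 141 in LA replicates 1 to 4. Chac1 at 12 h had 428 in CLA, against 638, 116, 105 and 59.2. CLA and LA replicate 1 were far above the other arrays, and at 12 h CLA was the lower of the pair.

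The 2 members that restrain the growth kinase mTORC1 did not separate by replicate 1. Ddit4, which encodes REDD1 and acts through the TSC complex, had 867 in CLA at 8 h, against 785, 824, 516 and 257 in LA replicates 1 to 4. At 12 h it had 752 in CLA, against 651, 898, 569 and 67.9. LA replicate 2 lay among the replicate 1 arrays at 8 h and above them at 12 h, and LA replicate 4 stood below all others. Sesn2, which encodes the leucine sensor Sestrin2, had 129 in CLA at 8 h, against 69.4, 54.8, 70.3 and 47.1. Sesn2 at 12 h had 101 in CLA, against 69.6, 90.9, 69.6 and 27.2. In these normalised values CLA was the brightest Sesn2 array at both times, and LA replicate 1 sat among the other LA arrays. As deposited, Sesn2 at 12 h had 77.8 in CLA, against 127.8 in LA replicate 2. Its second probe set, 1425139_at, did separate: it had 149 in CLA and 96.8, 22.7, 63.1 and 32.7 in LA replicates 1 to 4 at 8 h, and 135 in CLA and 142, 17.4, 48.5 and 14.3 (the floor) at 12 h.

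Counted over arrays, the 4 replicate 1 arrays lay above all 6 others in 7 members: Atf4, Ddit3, Atf3, Atf5, Trib3, Ppp1r15a and Chac1. That arrangement held for 22.5% of all tested genes. The reverse held for 1 member, Cebpg, and for 17.6% of all tested genes. On the deposited scaling, without normalisation, 6 members lay above (Ddit3 no longer did) where 2.79% of all tested genes did, and Cebpg lay below where 31.5% did. With the mean of all probe sets standing for a gene, Sesn2 joined the members above and Ddit3 left them. Both CLA arrays are among the 4 replicate 1 arrays and the members were chosen on CLA against LA, so these counts are in part set by that choice and nothing is read from them.

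Within LA alone, where no fatty acid difference enters, replicate 1 exceeded the mean of replicates 2 to 4 by a log2 difference of 3.34 for Trib3, 2.89 for Chac1, 2.89 for Atf3 and 2.33 for Ppp1r15a. The differences were 1.98 for Atf5, 1.58 for Ddit3, 1.11 for Atf4, 0.86 for Ddit4 and 0.31 for Sesn2, and -0.94 for Cebpg. The median over the 10 members was 1.78, against 0.18 over all tested genes. LA replicate 1 was the highest of the LA replicate numbers in 7 members, where it was the highest in 45.2% of all tested genes. The CLA arrays lay near LA replicate 1 in most members, and the members were chosen on CLA against LA. These values are therefore also in part set by that choice, and nothing is read from them.

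LA replicate 4 formed the other end, and the choice of the members on CLA against LA bears on its values as well. By the mean over both times it was the lowest of the LA replicate numbers in 7 members (Atf4, Ddit3, Atf5, Trib3, Ppp1r15a, Ddit4 and Sesn2), where it was the lowest in 23.9% of all tested genes. Replicate 2 exceeded it by a log2 difference of 2.70 for Ddit4, 2.05 for Trib3 and 0.24 for Chac1, while Atf3 was at or near the floor in both. The 12 h array of LA replicate 4 had a beta-actin control ratio, which divides the signal near the 3′ end of that message by the signal near its 5′ end, of 5.67, and the remaining 9 arrays had 1.45 to 2.60. Its Gapdh ratio was 1.42, and the remaining arrays had 0.81 to 0.92. The part of these ratios in the low member values on that array was not tested.

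The study was made to compare the fatty acids, and 8 h and 12 h were fitted jointly here. Without regard to replicate number, 9 of the 10 members lay higher in CLA and Cebpg lay lower. That fit took same-numbered arrays as independent, although in LA they correlated over genes by 0.503 to 0.855. Its SEs and p-values therefore leave out this pairing. The log2 differences were 2.50 (SE 1.17) for Trib3, 2.33 (SE 0.89) for Atf3 and 2.07 (SE 0.81) for Ppp1r15a. They were 1.93 (SE 0.90) for Chac1, 1.44 (SE 0.59) for Ddit3, 1.38 (SE 0.73) for Atf5 and 0.92 (SE 0.44) for Atf4. Sesn2 differed by 0.94 (SE 0.44), Ddit4 by 0.82 (SE 0.78) and Cebpg by -0.82 (SE 0.37). On the deposited scaling the Sesn2 difference was 0.50. The Atf3 value was 2.78 with a floor lowered by a factor of 2 and 1.67 with one raised by a factor of 2. The members' median was 1.41, where all tested genes had a median of 0.15. After median centring these became 1.72 and 0.23, and on the deposited scaling 1.27 and -0.22. Limma called no gene at an adjusted p under 0.05 (0% of the 10916), and 996 genes (9.12%) had an unadjusted p under 0.05, 3 members (Ddit3, Atf3 and Ppp1r15a) among them. As the members were chosen on this contrast, their count is a description. Without the LA array of replicate 1 at 8 h limma called 23 genes. Without LA replicate 1 at both times, which leaves CLA and LA no replicate number in common, it called 3220.

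These differences were smaller with the replicate number in the fit, and their cause was not tested. Both CLA arrays carry number 1, and with the replicate number as a block, which sets each CLA array mainly against LA replicate 1, the members lay on both sides of 0. Trib3 differed by 0.00 (95% interval -1.25 to 1.25), Chac1 by -0.24 (-1.13 to 0.64) and Atf5 by -0.10 (-0.53 to 0.32). Atf4 differed by 0.09 (-0.31 to 0.49), Ddit3 by 0.26 (-0.26 to 0.77) and Atf3 by 0.17 (-0.65 to 0.98). Each of these 6 values was closer to 0 than without the block. Ppp1r15a differed by 0.33 (-0.27 to 0.92), Ddit4 by 0.18 (-0.82 to 1.17) and Cebpg by -0.11 (-0.64 to 0.41). Sesn2 kept most of its size, at 0.71 (-0.07 to 1.50). All 10 intervals included 0, but only 6 of them excluded a difference of 2-fold or more in both directions, so for Trib3, Chac1, Ddit4 and Sesn2 a 2-fold difference is within the error. The median over the members was 0.13 and over all tested genes 0.00.

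**Figure D2:**
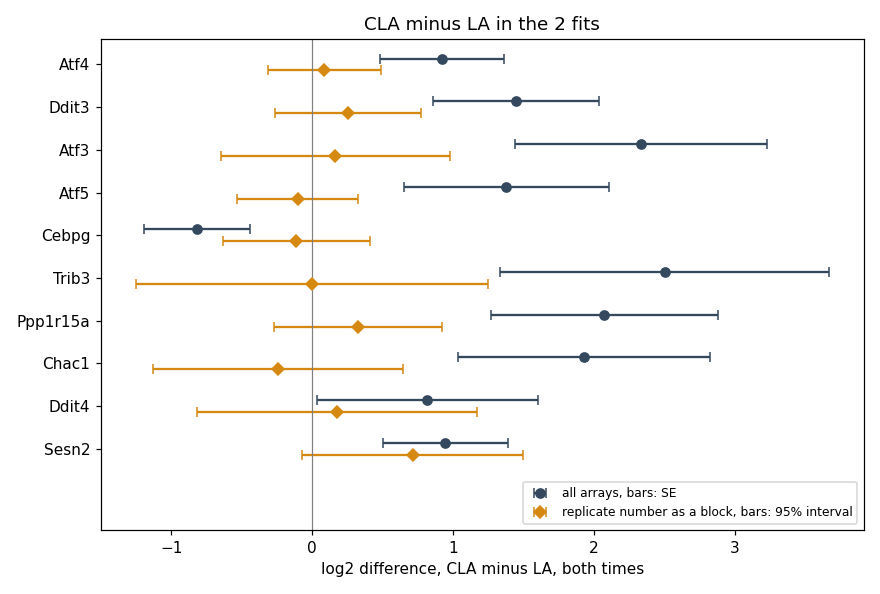
Log2 difference of CLA minus LA over both times for each member, from the fit to all arrays (circles, bars are the SE) and with replicate number as a block (diamonds, bars are the 95% interval). Without the block 9 members lie above 0, and with it the interval of each of the 10 includes 0.

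Set directly against LA replicate 1 of the same time, with 1 array on each side and so no test, Sesn2 was higher in CLA by a log2 difference of 0.89 at 8 h and 0.53 at 12 h. Ppp1r15a was higher by 0.41 and 0.24, Ddit3 by 0.27 and 0.24 and Ddit4 by 0.14 and 0.21. For those 4 members both times had the same sign. For the second Sesn2 probe set, CLA had 149 against 96.8 in LA replicate 1 at 8 h, but 135 against 142 at 12 h, so both probe sets lay higher in CLA at 8 h only. Atf5 differed by -0.17 and -0.04. Atf4 (0.22 and -0.05), Atf3 (0.37 and -0.04), Trib3 (0.11 and -0.12), Chac1 (0.09 and -0.57) and Cebpg (-0.46 and 0.24) changed sign between 8 h and 12 h.

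At each time alone, 1 CLA array stood against 4 LA arrays. At 8 h, Atf4 had an intensity of 2166 in CLA, against 1160.3 ± 554 in LA (SD, n = 4), and on the log2 scale Ddit3 was at 10.24 in CLA, against 8.79 ± 0.89 (SD, n = 4 LA arrays). Trib3 was at 9.87 in CLA, against 7.51 ± 1.57, and Sesn2 at 7.01 in CLA, against 5.90 ± 0.28. The LA arrays at 8 h lay closer together for Sesn2 than for any other member. At 12 h, Atf4 had an intensity of 1809 in CLA, against 1125 ± 551 in LA, and on the log2 scale Trib3 was at 9.90 in CLA, against 7.27 ± 2.36, and Sesn2 at 6.65 in CLA, against 5.88 ± 0.76. Limma called 0% of genes at either time. At an unadjusted p under 0.05 were 488 genes at 8 h (4.47%) and 186 at 12 h (1.7%), none of them a member. Without LA replicate 1 of 8 h limma called 193 genes at 8 h and 74 at 12 h, and without LA replicate 1 of 12 h it called 13 at 8 h.

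An interaction term tested whether the response to CLA differed between 12 h and 8 h, which the choice of members did not use. No gene passed: limma called 0% at an adjusted p under 0.05, and 116 genes (1.06%) were at an unadjusted p under 0.05, none a member. Without LA replicate 1 of 8 h the count of calls was 51. The log2 interaction was -0.90 (SE 1.91) for Atf3, -0.76 (SE 1.93) for Chac1 and 0.75 (SE 0.76) for Cebpg, and the other 7 members lay between -0.39 and 0.28. These SEs also leave out the pairing of same-numbered arrays. With the replicate block the Cebpg value had a 95% interval of 0.16 to 1.35 and a limma adjusted p of 0.644, so it did not pass. Its CLA array at 8 h was the dimmest of all 10, and at 12 h the CLA array exceeded LA replicate 1.

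The LA cultures were also compared between 8 h and 12 h, a contrast that holds no CLA array. No member passed the test. Atf4 had an intensity of 1160.3 ± 554 at 8 h and 1125 ± 551 at 12 h (SD, n = 4 each), a log2 difference of -0.05 (SE 0.43), 12 h minus 8 h. On the log2 scale Ddit3 was at 8.79 ± 0.89 at 8 h and 8.72 ± 1.05 at 12 h, a difference of -0.07 (SE 0.57). These changes were far smaller than the spread between the LA replicates. The largest was that of Ddit4, at 9.08 ± 0.78 at 8 h and 8.60 ± 1.70 at 12 h, a difference of -0.48 (SE 0.76). Trib3 differed by -0.24 (SE 1.13), Atf3 by -0.23 (SE 0.85), Chac1 by -0.23 (SE 0.86) and Ppp1r15a by 0.12 (SE 0.78). Atf5 (-0.06, SE 0.71), Cebpg (0.05, SE 0.34) and Sesn2 (-0.02, SE 0.42) lay nearest to 0 with Atf4. The limma adjusted p was 1.0 for each member, or at least 0.791 with the replicate block. Over all genes, 0% were called and 26 (0.238%) were at an unadjusted p under 0.05, or 457 genes with the block.

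Pair by pair, the direction depended on the replicate number. For Trib3 the 12 h minus 8 h difference was 0.26, -0.09, 0.89 and -2.03 in LA replicates 1 to 4. For Ddit4 it was -0.27, 0.12, 0.14 and -1.92, and for Chac1 -0.32, 0.21, 0.46 and -1.25. In replicate 4 all 10 members were lower at 12 h, as were 46.7% of all tested genes. The members' median was -0.03, 0.14, 0.23 and -0.55 in replicates 1 to 4, where the median of all tested genes was 0.00 in each. No member was lower in all 4 pairs (6.43% of all tested genes were) and none was higher in all 4 (5.94%). Without the 12 h array of LA replicate 4, which had the high beta-actin ratio, the LA time difference changed sign for 9 members (all but Ppp1r15a), reaching 0.76 for Trib3 and 0.36 for Ddit4. Without LA replicate 1 of 8 h it changed sign for 8 members, among them Chac1 (0.51) and Atf3 (0.57).

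**Figure D3:**
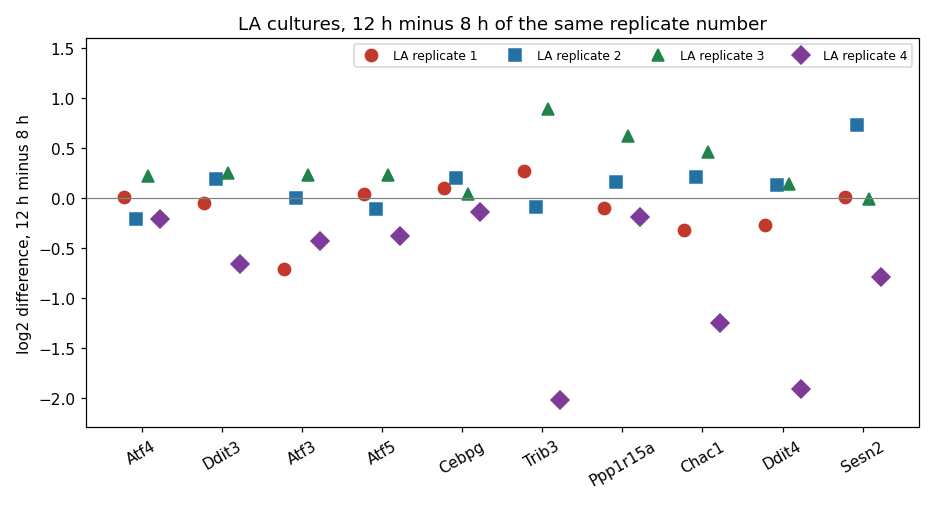
Log2 difference of 12 h minus 8 h in the LA cultures, with 1 point for each replicate number and member. Replicate 4 (diamonds) lies below 0 for all 10 members, down to -2.03 for Trib3, while replicates 1 to 3 lie on both sides of 0.

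The genes upstream of ATF4 lay both higher and lower in CLA. The members' own direction was in part set by choosing them on CLA against LA, so it is not compared. Of the 18 tested genes for eIF2, its kinases, its exchange factor and its phosphatase, 6 lay higher and 12 lower in CLA. Limma called none. The list's median difference was -0.07, where all tested genes had 0.15, and with the replicate block it was -0.16. In 4 of the 18 all replicate 1 arrays lay above the other 6, and in 7 all lay below. For all tested genes these shares were 22.5% and 17.6% (2.79% and 31.5% on the deposited scaling). The eIF2 kinases differed among themselves: Eif2ak1, the heme-regulated kinase, lay at 0.39, Eif2ak3, the endoplasmic reticulum kinase PERK, at 0.00, Eif2ak4, the amino acid sensor GCN2, at -0.99, and Eif2ak2, the RNA-activated kinase PKR, at -1.58. Between LA replicate 1 and replicates 2 to 4 they differed by 0.74, 0.24, -1.32 and -1.30. With the block they lay at -0.17, -0.18, 0.00 and -0.61. Eif2ak4 was at the floor on every replicate 1 array, so the size of its differences depends on where the floor was set. Eif2s2, the beta subunit of eIF2, lay at -1.15, but at 0.22 with the block, and at -1.83 between LA replicate 1 and replicates 2 to 4. Ppp1r15b, the constitutive counterpart of Ppp1r15a, lay at -0.07, and at 0.01 between the LA replicates, where Ppp1r15a had 2.33. Of the catalytic subunits that GADD34 can recruit, Ppp1ca lay at -0.04, Ppp1cc at -0.24 and Ppp1cb at -1.11. With the block these were -0.15, 0.10 and 0.14, and between the LA replicates 0.14, -0.45 and -1.67. Eif2s1 was not analysed here.

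Targets of ATF4 and CHOP outside the members lay mostly higher in CLA. Because the members were chosen on CLA against LA, the sizes in this list are not compared with theirs. Of 29 tested genes (of 34), 26 lay higher and 3 lower in CLA, with a median of 0.48, and none passed the limma test. Nupr1, a stress-induced chromatin protein, lay at 0.93, Asns, the asparagine synthetase, and Ero1a, an oxidase of protein folding, at 0.66 each, Eif4ebp1, an inhibitor of cap-dependent translation, at 0.39 and Psat1, an enzyme of serine synthesis, at 0.04. With the block the list's median was 0.05, and Asns lay at 0.20 and Nupr1 at 0.03. Between LA replicate 1 and replicates 2 to 4 the list's median was 0.61, and 12 of the 29 genes had all replicate 1 arrays above the other 6 and 1 had them below, where 22.5% and 17.6% of all tested genes did (2.79% and 31.5% on the deposited scaling). Over time in LA, 9 lay higher and 20 lower at 12 h, with no call.

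Of 20 tested bZIP relatives (of 22), 15 lay higher and 5 lower in CLA (median 0.45, with the block -0.13), with no call. Jund, a partner in AP-1, lay at 1.30 and Cebpa, a driver of fat cell formation that is also among the adipocyte markers, at 0.62. Cebpb, the early C/EBP of differentiation, lay at 0.29 and Xbp1, the factor of the IRE1 branch of the unfolded protein response, at -0.13. In LA replicate 1 against replicates 2 to 4 these stood at 2.08, 1.06, 1.02 and -0.24. Of the 14 tested paralogs and partners (of 15), 7 lay higher and 7 lower in CLA (median -0.13, with the block 0.11), with no call. Akt1, the kinase that Trib3 binds, lay at 0.55. Rragc, a subunit of the GTPase complex through which Sestrin2 acts on mTORC1, lay at 0.17. Txnip, a partner of Ddit4, lay at -0.39 and Cop1, the ubiquitin ligase that Tribbles proteins recruit, at -0.51. With the block they lay at -0.07, 0.11, 0.06 and 0.14. In LA replicate 1 against replicates 2 to 4 they stood at 0.83, 0.08, -0.60 and -0.86.

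**Figure D4:**
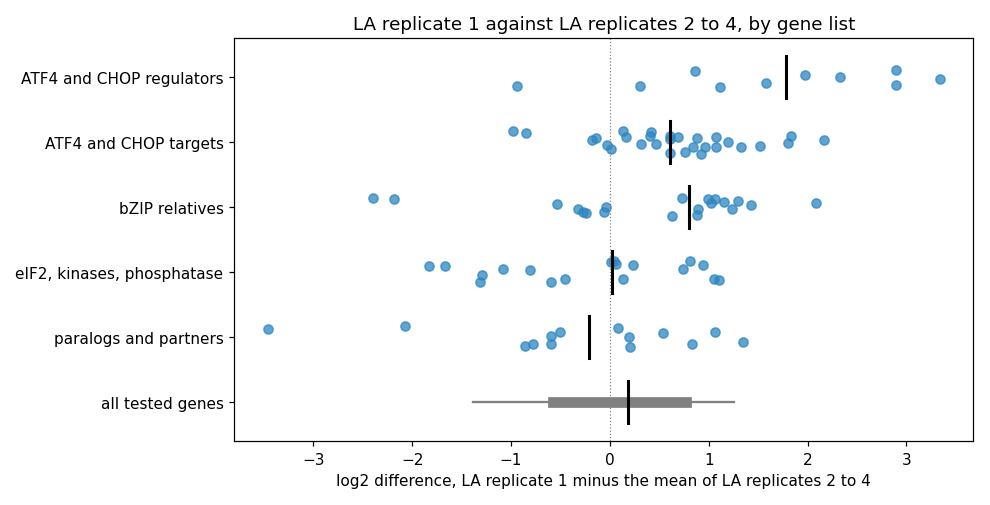
Log2 difference of LA replicate 1 minus the mean of LA replicates 2 to 4, with 1 point per tested gene in each list and a bar at its median; for all tested genes the thick line spans the 25th to 75th percentile (-0.58 to 0.77) and the thin line the 10th to 90th. The members' median is 1.78 and that of the eIF2 list is 0.02. The members were chosen on CLA against LA, which in part sets their values.

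In the authors' deposited table, pooled over both times, the ratio was above 1 for 13 of the 17 member probe sets and the p-value was under 0.05 for 9. These counts hold more than 1 probe set for some genes. No share over all probe sets is given beside them, so nothing is read from them. For the brightest probe sets the authors' deposited table gave a ratio of 5.32 for Atf3, 3.85 for Ppp1r15a, 3.23 for Chac1 and 3.08 for Trib3. It was 2.30 for Ddit3, 2.17 for Atf5, 1.73 for Atf4, 1.34 for Ddit4, 1.05 for Sesn2 and 0.541 for Cebpg in the authors' deposited table. The second Sesn2 probe set had a ratio of 1.84 in the authors' deposited table, so the probe sets of this gene differed there too. The p-value in the authors' deposited table was under 0.05 for 6 of the 10 brightest probe sets, and for 26.5% of all tested genes, also by their brightest probe set. The p-value in the authors' deposited table was 0.0757 for Atf4 and 0.0686 for Trib3. It comes from the same arrays and the contrast on which the members were chosen, and its error model is not given in the sources used here.

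The profile over the 10 arrays was also compared between genes, as the root-mean-square difference on the log2 scale from the members' mean profile after each gene was centred. A gene with no variation would lie at 0.922. The 5 nearest genes outside the members were Smpd2 (0.161), Mlst8 (0.189), Dusp14 (0.195), Hilpda (0.197) and Lonp1 (0.210). Each had a positive LA replicate 1 difference, of 1.51 to 1.71. That sign follows from how they were picked, because the members' mean profile is itself high on the replicate 1 arrays. The members were in turn chosen on CLA against LA, so nothing is read from it. Among the members Ddit3 (0.230) was nearest to the mean profile, followed by Atf4 (0.333) and Atf5 (0.370). Trib3 (0.940), whose swings were larger, and Cebpg (1.43), which ran the other way, lay farthest from it.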

How the data were processed

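RNA of 10 cultures was isolated with Trizol, and biotin-labelled cRNA was hybridised to Affymetrix arrays, per the labels' protocols. The authors deposited 1 intensity for each probe set and array, in linear units. Negative entries point to a subtraction before deposit, of a kind that is not stated. The software behind these intensities and the scaling between arrays are not given in the sources used here. A second deposited table covers both times jointly, and its name gives Rosetta Resolver as the processing software. Per the file headers it holds a ratio with its fold change, a log10 ratio, an error of that log10 ratio (treated as a score) and a p-value. Its ratios ran as CLA over LA when set against the value table (r = 0.914 across tested genes, with the same arrays on both sides).

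Array controls (64 probe sets) were dropped, and of the rest the 34945 with exactly 1 gene symbol entered, leaving out 932 with several and 9160 without one. Intensities were quantile normalised, then raised to a floor of 14.3, equal in size to the table's 2nd percentile, then converted to log2. A gene was represented by its brightest probe set (18193 genes). The dimmest 40% were removed, so that 10916 were tested, with 11.1% of their values at the floor. Comparisons were two-sided limma fits (limma 3.58.1, R 4.3.3) using lmFit and eBayes with a mean-variance trend, and p-values were adjusted by Benjamini-Hochberg across the 10916 genes, with calls at an adjusted p under 0.05. The overall CLA and LA comparison had time as a covariate; the remaining ones used the means of the 4 groups, where the spread comes from LA arrays and a single CLA array is taken to share it. The precision is limited by the number of arrays. The scripts were tested on simulated data.

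The members and gene lists were chosen with earlier results of these data known. Genes outside the members are named by rule: the 4 brightest of each list, 10 fixed names and the 5 nearest profiles. Whether replicate numbers pair the LA arrays was checked on deviations from the time means: same-numbered arrays had correlations over genes of 0.855, 0.779, 0.503 and 0.553, and differently numbered ones reached at most 0.283. The numbers were therefore also fitted as a block. Alternatives covered scaling, floor, filter, probe set rule, variance model, the block and leaving out single arrays; leaving out LA number 1 or 4 at both times was added after seeing the data. Promoter windows are from RefSeq (GRCm38.p6), where all 10 members were found by symbol. Plots were made with matplotlib 3.10.9.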

Additional observations from a re-analysis of the deposited data

Results flagged for a closer look

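Atf3 in LA replicate 1 stood apart from the other LA arrays at both times. At 8 h replicate 1 was at log2 7.19 and replicates 2 to 4 were between 3.84 and 4.27, so that the gap to the nearest array took up 0.871 of the whole range, above Dixon's 95% critical value for 4 samples. At 12 h replicate 1 was at 6.48, the others were between 3.84 and 4.06, and the gap took up 0.914 of the range. Chance alone singles out about 1 in 20 groups, and 20 groups were examined (10 members at 2 times). Atf3 was chosen with its CLA against LA difference known, so such a gap is in part set by that choice. The floor of log2 3.84 holds 4 of the 6 other arrays and narrows the spread among them. Replicate 1 was also the dimmer array as deposited, and the part of that in these values was not tested.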

How the results depend on the processing

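With the replicate number as a block, which is how the pairs were treated, the calls stayed at 0 in all 5 comparisons, and of the members only Ddit4 and Sesn2 moved by less than the LA spread for CLA minus LA. Counts of genes called, 0 in each comparison as reported, were not stable. For CLA against LA over both times they were 28 with the floor doubled, 51 with no filter, 10 with the mean of probe sets, 0 to 23 with 1 array left out and 3220 without LA number 1. For 8 h alone they were 273 with the floor doubled, 548 with no filter, 38 with the mean of probe sets, 419 with every probe set, 0 to 193 with 1 array left out (193 without LA replicate 1 of 8 h and 13 without that of 12 h) and 1634 without LA number 1. For 12 h alone the same settings gave 100, 361, 7, 198, 0 to 74 and 657. For the change of the CLA response with time they gave 279, 739, 1, 323, 0 to 51 and 356. The LA time comparison gave 1 gene with no filter. The other scalings, the lower floor, the inverse hyperbolic sine, the 60% filter, no variance trend and leaving out LA number 4 gave 0 calls in each comparison. The cause of the differing counts was not tested.

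For LA 12 h minus 8 h, in which no member passed, the sign of some members turned. Median centring gave -0.016 for Cebpg, the deposited scaling 0.010 for Atf5 and 0.072 for Sesn2, and the mean of probe sets 0.072 for Atf4 and 0.14 for Ddit3. Without LA number 4 the values were 0.0018 for Atf4, 0.13 for Ddit3, 0.050 for Atf5, 0.35 for Trib3, 0.11 for Chac1 and 0.24 for Sesn2. With 1 array left out they ranged from -0.34 to 0.24 for Atf4, -0.47 to 0.34 for Ddit3, -0.87 to 0.57 for Atf3, -0.57 to 0.48 for Atf5, -0.20 to 0.27 for Cebpg, -1.16 to 0.76 for Trib3, -0.43 to 0.74 for Ppp1r15a, -0.94 to 0.51 for Chac1, -0.89 to 0.36 for Ddit4 and -0.23 to 0.35 for Sesn2. None of these had passed a test. A filter of 60% left Atf3 untested. The main limits are the lone CLA array per time, its shared replicate number with the LA array it is nearest to, and the floor, which sets the size of the Atf3 differences.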
